A study of Mus musculus with 6 samples.

Results

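Mucl1 and 9 genes used as markers of airway, salivary, gastric or oesophageal epithelium (Gkn3, Muc1, Krt4, Tekt1, Foxj1, Scgb1a1, Sftpd, Aqp5 and Ltf) were followed on arrays of mouse thyroid RNA. The 10 genes were read by 12 probe sets that the array's annotation gives to a single gene, out of 18193 genes so named on the array. Mucl1 and Gkn3 were chosen by their signal on these same arrays, Mucl1 higher and Gkn3 lower in the knockout. Their difference is therefore described here and not tested. The other 8 genes were added by their known cell types, to see whether Mucl1 followed them from array to array. Earlier results of these data were known when they were chosen. The groups were 3 thyroid samples of Slc26a4 knockout mice, numbered 2, 4 and 6 in the labels, and 3 thyroid samples of Slc26a4 heterozygous mice, numbered 1, 3 and 5, all at postnatal day 15. The heterozygotes, which carry the mutant allele too, served as the controls, and Slc26a4 encodes the anion exchanger pendrin. The labels and design text name no strain, no sex and no position of the mutation in the gene. They also leave unsaid whether each sample came from its own animal, and the spread behind a p-value is then that of these samples and may be technical.

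Mouse Mucl1 and its relative Mucl2 have been described as genes of small mucin-like salivary proteins, under the older names Spt2 and Spt1. RefSeq's annotation of GRCm38.p6, however, lists Mucl1 as a transcribed pseudogene. Whether its RNA makes a protein was not examined here. Around a dissected thyroid lie the trachea, whose lining holds secretory club cells and ciliated cells, the oesophagus with its stratified squamous lining, and glands with serous and mucous cells. Club cells release secretoglobins such as Scgb1a1, ciliated cells switch on the motile cilium programme under Foxj1, squamous cells of the oesophagus make keratin 4 (Krt4), and gland cells move water through aquaporin 5 (Aqp5) and secrete lactoferrin (Ltf). These genes are not products for which thyroid follicle cells are known.

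A level is the array's linear signal for a probe set. Array medians ran between 78.1 and 103.6, and the brightest value of 27 control probe sets for bacterial transcripts, 22.9, was taken as background. Probe sets differ in how strongly they bind, so the levels of single genes were compared between arrays. Where genes are called brighter, or signals are summed over a list, the bright probe sets dominate, and such sums too were compared only between arrays. In bulk tissue, fewer cells of a type and less RNA per cell cannot be told apart. Thyroglobulin (Tg), the defining product of the follicle cell, read between 11794 and 13201 in knockout and between 12449 and 13805 in heterozygous thyroid. Not every gene of the follicle cell list was as even. Slc5a5 read 3400, 2136 and 1701 on knockouts 2, 4 and 6, against 2802, 2131 and 1291 on heterozygous 1, 3 and 5. Dio1 read between 2739 and 5090 in knockout and between 3377 and 4832 in heterozygous thyroid. Iyd was more even, between 6403 and 7447 and between 6814 and 7437 in the same order. Genes of other tissue also varied between arrays of the same genotype. Pth, the parathyroid hormone gene, read 10100, 11058 and 2788 on knockouts 2, 4 and 6, against 165 on heterozygous 1 and 10356 and 9702 on heterozygous 3 and 5. Dntt, which acts in developing T cells, read 6.09, 1779 and 22.7 on the knockouts and between 15.7 and 24.5 on the heterozygotes.

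Mucl1 was bright on every knockout array and close to background on every heterozygous array. Its probe set, 1420466_at, read 166, 152 and 132 on knockouts 2, 4 and 6, against 10.9, 35.4 and 28.5 on heterozygous 1, 3 and 5. The groups did not overlap, and the dimmest knockout array was 3.74 times as bright as the brightest heterozygous array. The means were 150.4 ± 17.1 in knockout and 24.9 ± 12.7 in heterozygous thyroid (SD, n = 3 each), with a log2 difference of 2.05 on the log2(signal + 16.7) scale used throughout. That scale understates the change of dim genes. The value on heterozygous 1 lay under background, so the heterozygous mean is partly a reading of noise.

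Mucl2, the relative of Mucl1, did not show this pattern. It read 2.11, 39.98 and 42.6 in knockout, against 51.9, 11.2 and 38.3 in heterozygous thyroid, by probe set 1448168_a_at. Its groups overlapped, and knockout 2, the brightest array for Mucl1, was the dimmest for Mucl2. Mucl1 has a single probe set here, so its difference could not be checked with another. All 10 genes lie on other chromosomes than Slc26a4 in GRCm38.p6.

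**Figure D1:**
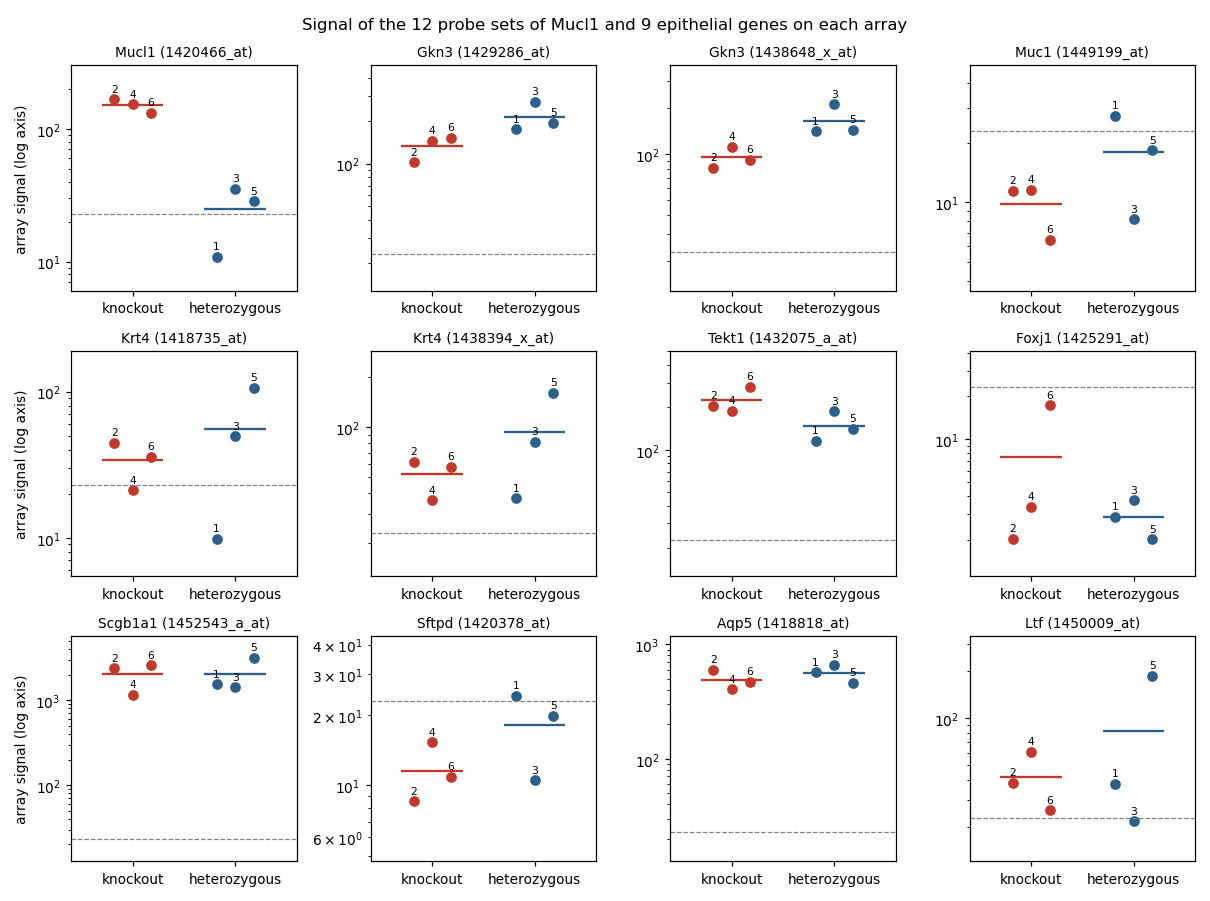
Signal of each of the 12 probe sets on each array, on log axes, with knockout arrays on the left in red and heterozygous arrays on the right in blue. Small digits are sample numbers, bars are group means (n = 3) and the dashed line is the background of 22.9. Mucl1 is above 130 on the 3 knockout arrays and below 36 on the 3 heterozygous arrays, whereas most other panels overlap.

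Of the 12 probe sets, 8 passed the filter on dim values and entered the fit over 27022 probe sets, which covered 7 of the 10 genes. The filter used the mean of the log2 values over the 6 arrays, and its limit equals a signal of 43.5 on that scale. Muc1, Foxj1, Sftpd and the dimmer Krt4 probe set fell under it. Among the 5 tested probe sets of genes other than Mucl1 and Gkn3, 0 passed limma at an adjusted p of 0.05 and 1, that of Tekt1, had an unadjusted p under 0.05. Over the whole array 0.0% of the 27022 were called higher and 0.0% lower, and 138 (0.511%) had an unadjusted p under 0.05. A uniform spread of p-values would put a fraction of 0.05 under that limit, more than was seen. The reason was not tested. A missing call or an overlap of the groups is therefore weak evidence that a gene did not differ. All 3 knockout arrays lay above all 3 heterozygous arrays for 443 probe sets (1.64%) and below them for 552 (2.04%).

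Gkn3, a member of the gastrokine family of secreted stomach proteins, was lower on every knockout array by both of its probe sets. Probe set 1429286_at read 102, 144 and 153 on knockouts 2, 4 and 6, against 175, 273 and 193 on heterozygous 1, 3 and 5. Probe set 1438648_x_at, whose _x_at ending marks probes that may also match other transcripts, read 81.5, 112 and 92.0 in knockout and 141, 212 and 144 in heterozygous thyroid. In both cases the groups did not overlap and heterozygous 3 was the brightest array. The means were 132.9 ± 26.9 against 213.6 ± 52.5 by the first and 95.0 ± 15.3 against 165.6 ± 39.9 by the second (SD, n = 3 each), with log2 differences of -0.62 and -0.69. The gap between the groups was narrower than for Mucl1.

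The other stomach markers were dim. Of the 7 measured besides Gkn3, Gkn1, Gkn2 and Cblif, the intrinsic factor gene, stayed under background on all 6 arrays. The summed signal of these 7 was between 70.0 and 127.5 in knockout and between 113.1 and 151.7 in heterozygous thyroid, so that the groups overlapped without Gkn3. Tff1, a trefoil peptide of stomach mucus, read 28.4, 7.17 and 47.4 in knockout, against 49.1, 43.9 and 59.0 in heterozygous thyroid, and pepsinogen C (Pgc) read 24.9, 17.7 and 19.7 against 29.0, 32.5 and 22.2. Both had overlapping groups and fell under the limit for testing. Gkn3 is also known as a marker of arterial endothelium in mouse brain. Of 11 other arterial genes tested, 7 were higher and 4 lower in knockout, with a median log2 difference of 0.04, and the groups overlapped for each of them. The chemokine Cxcl12 averaged 4782 ± 467 in knockout and 4563 ± 197 in heterozygous samples, and the Notch ligand Jag1 averaged 2858 ± 448 and 3207 ± 186 in the same order. The elastic fibre protein fibulin 5 (Fbln5) averaged 2153 ± 207 and 2114 ± 272. Endothelin 1 (Edn1) had the largest difference among these 11, at -0.32 (limma, adjusted p = 1.0).

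Scgb1a1, the club cell secretoglobin, was well above background on all 6 arrays, at levels that varied from sample to sample in both genotypes. It read 2378, 1162 and 2576 on knockouts 2, 4 and 6, against 1546, 1416 and 3181 on heterozygous 1, 3 and 5. Heterozygous 5 was the brightest array and knockout 4 the dimmest, and the groups overlapped widely. The means were 2039 ± 765 in knockout and 2048 ± 984 in heterozygous thyroid (SD, n = 3 each). The log2 difference was 0.01, with a 95% interval of -0.85 to 0.87 (limma, adjusted p = 1.0), which leaves room for a sizeable difference either way.

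The other club and airway secretory genes also varied between samples of one genotype. Of 13 genes measured, Scgb1a1 included, 10 were above background on all 6 arrays. The gel-forming mucin Muc5ac and the receptor subunit Gabrp were under it on all 6. The 10 tested genes split into 3 higher and 7 lower in knockout, with a median log2 difference of -0.19, against a median of -0.002 and 49.3% higher over all probe sets tested. This median was 0.08 without heterozygous 5 and -0.05 without knockout 4. Without Scgb1a1 the split was 2 higher and 7 lower and the median -0.20. On heterozygous 5, 7 of the 10 had their brightest value, Scgb1a1 among them. The secretoglobin Scgb3a1 read 723, 589 and 1394 in knockout, against 783, 466 and 2185 in heterozygous thyroid, with its brightest value on the same array as Scgb1a1. The carbonyl reductase Cbr2 read between 1003 and 1229 in knockout and between 908 and 1379 in heterozygous samples. Bpifa1, a secreted protein of the upper airway lining, stood apart on heterozygous 3 at 1333, against 75.1 and 133 on the other heterozygotes and 410, 101 and 101 on knockouts 2, 4 and 6. The trefoil peptide Tff2 averaged 72.6 ± 31.6 in knockout and 88.6 ± 33.6 in heterozygous thyroid. The summed signal of the 13 genes, of which Scgb1a1 was the brightest, was between 4730 and 7335 in knockout and between 5227 and 9759 in heterozygous thyroid. By array it was 7335, 4730 and 6789 on knockouts 2, 4 and 6, against 5227, 6090 and 9759 on heterozygous 1, 3 and 5. Knockout 2 was the brightest array for Mucl1 and had the second highest sum, and heterozygous 1 was low in both. Heterozygous 5 had the highest sum with dim Mucl1, and knockout 4 the lowest sum with bright Mucl1.

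**Figure D2:**
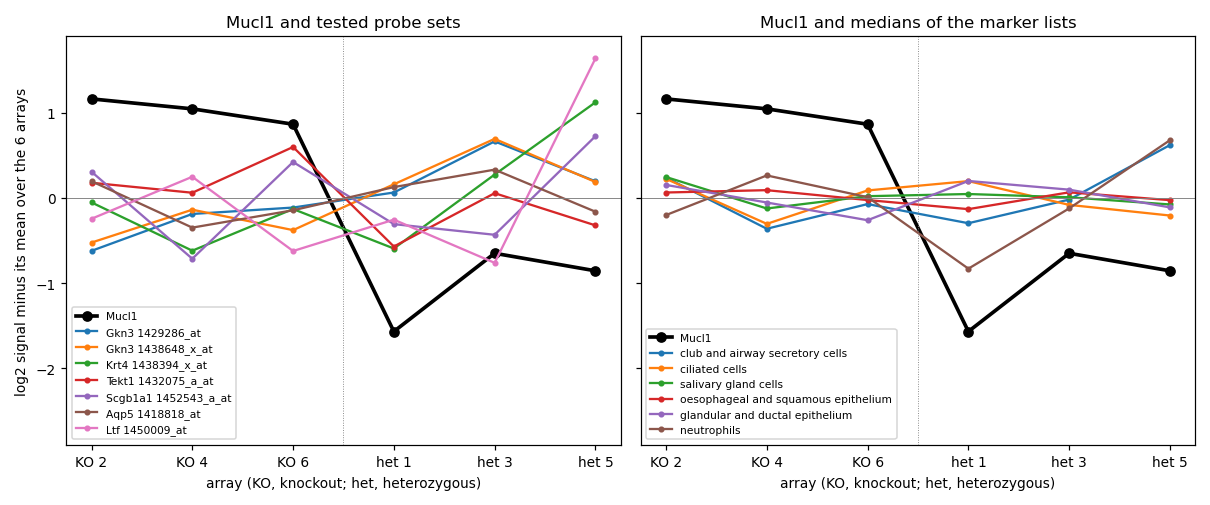
Log2 signal on each array minus its mean over the 6 arrays, with the 3 knockout arrays left of the dotted line and the 3 heterozygous arrays right of it. Mucl1 (black) is drawn against the 7 other tested probe sets of the genes described (left) and against the medians of 6 marker lists (right). Mucl1 drops between the genotypes by 2.05 on average, while the list medians lie between -0.83 and 0.68 on every array and peak on heterozygous 5 for airway secretory and neutrophil genes.

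Among the ciliated cell genes, the master regulator and a structural gene differed in what could be measured. Foxj1, the transcription factor that sets up motile cilia, read between 2.04 and 17.2 in knockout and between 2.02 and 3.76 in heterozygous thyroid, under background on all 6 arrays. Tekt1, which encodes tektin 1, a filament protein of the microtubules inside cilia and sperm tails, was above background throughout. Its probe set, 1432075_a_at, read 206, 189 and 281 on knockouts 2, 4 and 6, against 116, 188 and 141 on heterozygous 1, 3 and 5. All 3 knockout arrays were above the heterozygous ones, by a margin of 188.8 on knockout 4 against 188.0 on heterozygous 3 at its narrowest. The means were 225.5 ± 49.3 and 148.2 ± 36.6 (SD, n = 3 each), and the log2 difference was 0.56 with an interval of 0.03 to 1.09. With an unadjusted p of 0.0415 and an adjusted p of 1.0 (limma), this was not a call.

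The other ciliated cell genes differed in both directions. Of 18 measured, 9 were above background on all arrays and were tested, 5 of them higher and 4 lower in knockout, with a median log2 difference of 0.05. That median was -0.04 without knockout 6, -0.02 without heterozygous 3 and 0.16 without heterozygous 5, and 0.30 under a stricter filter (60th percentile), which left fewer genes. Without Tekt1 the split was 4 and 4 and the median -0.03. The groups overlapped for each of these other 8. The adenylate kinase Ak7 read 1995, 1163 and 1247 in knockout, against 1655, 769 and 700 in heterozygous thyroid. Its log2 difference of 0.56 was as large as that of Tekt1 and its groups overlapped (limma, adjusted p = 1.0). Tppp3, a tubulin-binding protein, averaged 1175 ± 201 and 1128 ± 157, and Rfx3, a transcription factor for cilia genes, averaged 813 ± 308 and 1108 ± 317, each with knockout before heterozygous. The related tektin Tekt2 differed by 0.14 and Tekt4 by -0.10. Ccdc153, singled out after its values were seen, read 68.8, 60.3 and 50.5 in knockout, against 16.8, 32.0 and 33.2 in heterozygous thyroid, without overlap, and was too dim to be tested.

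Sftpd, the surfactant protein D of lung and some other mucosal surfaces, was at or under background. It read 8.55, 15.3 and 10.9 in knockout, against 24.2, 10.5 and 19.9 in heterozygous thyroid, with heterozygous 1 alone above 22.9. The surfactant genes that define alveolar type II cells were likewise dim. Sftpa1 was under background on all 6 arrays, Sftpb read between 5.15 and 30.9 in knockout and between 7.84 and 43.2 in heterozygous thyroid, and Sftpc read between 18.6 and 29.7 and between 26.2 and 36.4 in the same order. Brighter members of the alveolar list were Abca3, a lipid transporter, at 2733 ± 754 in knockout and 2985 ± 312 in heterozygous thyroid, the aspartic protease Napsa at 2213 ± 354 and 2261 ± 738, and the receptor Ager at 2199 ± 152 and 2874 ± 688. With the phosphate transporter Slc34a2, at 122 ± 28.5 and 151 ± 33.4, these were the 4 tested genes of that list, 1 higher and 3 lower in knockout, with a median log2 difference of -0.22.

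**Figure D3:**
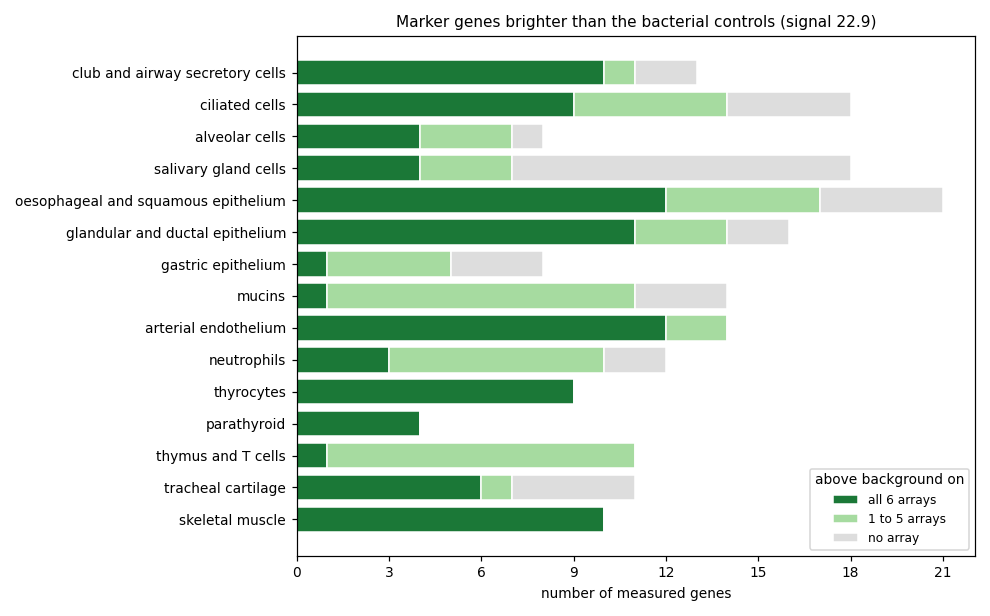
Number of measured genes of each marker list that were brighter than the background of 22.9 on all 6 arrays (dark green), on 1 to 5 arrays (light green) or on no array (grey). Airway secretory genes were above it on all arrays for 10 of 13, while 11 of 18 salivary genes were under it on all arrays.

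Krt4, the keratin of the suprabasal layers of oesophageal lining, was highest on heterozygous 5 by both probe sets. Probe set 1438394_x_at read 61.8, 36.3 and 57.7 on knockouts 2, 4 and 6, against 37.2, 81.7 and 161 on heterozygous 1, 3 and 5. Its _x_at ending marks probes that may also match other transcripts. The dimmer 1418735_at read 44.4, 21.1 and 35.9 in knockout and 9.87, 49.5 and 106 in heterozygous thyroid and was not tested. It gave a log2 difference of -0.28. By both, heterozygous 1 and knockout 4 were the dimmest arrays and the groups overlapped. The brighter probe set gave 51.9 ± 13.7 in knockout and 93.2 ± 62.5 in heterozygous thyroid (SD, n = 3 each), a log2 difference of -0.54 with an interval of -1.50 to 0.43 (limma, adjusted p = 1.0). Without heterozygous 5 it was -0.11.

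Krt13, the usual partner of Krt4 in that epithelium, also had its brightest value on heterozygous 5. It read 20.7, 10.3 and 55.5 in knockout, against 5.44, 28.6 and 92.5 in heterozygous thyroid. Of the 21 measured genes of oesophageal and squamous epithelium, 12 were above background on all arrays and 10 were tested, 5 higher and 5 lower in knockout, with a median log2 difference of 0.01. Without Krt4 the split was 5 and 4 and the median 0.07. The junction protein Perp averaged 3594 ± 695 in knockout and 3872 ± 693 in heterozygous thyroid, and Trp63, the regulator of stratified epithelia, averaged 1620 ± 397 and 1814 ± 418. Krtdap, a protein of differentiating keratinocytes, read 181, 209 and 186 in knockout, against 88.0, 101 and 386 in heterozygous thyroid. Its 3 knockout values lay between those of heterozygous 3 and heterozygous 5. The groups were apart for Krt10 (844, 822 and 1042 in knockout, against 784, 794 and 813 in heterozygous thyroid) and for Ly6d, which was singled out after its values were seen (64.4, 62.4 and 61.6 against 46.1, 52.0 and 57.2). Their log2 differences, 0.17 and 0.22, did not pass (limma, adjusted p = 1.0). The summed signal of the 21 genes was between 6581 and 8491 in knockout and between 7290 and 8576 in heterozygous thyroid.

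Aqp5, the water channel of serous gland cells and alveolar type I cells, was above background on all 6 arrays. It read 597, 404 and 468 on knockouts 2, 4 and 6, against 568, 657 and 462 on heterozygous 1, 3 and 5, with the groups overlapping. The means were 489 ± 98.3 and 563 ± 97.8 (SD, n = 3 each), the log2 difference was -0.20 and its interval -0.64 to 0.24 (limma, adjusted p = 1.0). Knockout 2, the brightest array for Mucl1, was the second brightest for Aqp5, while heterozygous 3 was the brightest for Aqp5.

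Muc1, a membrane mucin of glandular epithelia, was dim. It read 11.4, 11.5 and 6.43 in knockout, against 27.3, 8.21 and 18.3 in heterozygous thyroid, and only heterozygous 1 was above background. Of 16 measured genes of glandular and ductal epithelium, 11 were above background on all 6 arrays. The 12 tested genes were more often lower, 10 against 2 higher, with a median log2 difference of -0.21, and without Aqp5 and Ltf the split was 2 higher and 8 lower with a median of -0.14. The groups overlapped for all 12 genes, and 0 passed limma. The keratin Krt19 averaged 2358 ± 215 in knockout and 2976 ± 672 in heterozygous thyroid, the secreted protein Wfdc2 2399 ± 353 and 2370 ± 429, and the transcription factor Sox9 3211 ± 751 and 3275 ± 505. Sox9 and Krt19 are also made by other cells, among them cartilage cells for Sox9.

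Ltf, lactoferrin of gland secretions and of neutrophil granules, was high on a single array. It read 38.4, 60.8 and 25.7 in knockout, against 38.0, 21.8 and 186 in heterozygous thyroid. Heterozygous 5 was the brightest array, knockout 4 followed, and only heterozygous 3 lay under background. Without heterozygous 5 the probe set fell under the limit for testing, so that its difference has no value there. The means were 41.6 ± 17.8 and 82.1 ± 90.8 (SD, n = 3 each), and the log2 difference of -0.41 had an interval of -1.76 to 0.93 (limma, adjusted p = 1.0).

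Several neutrophil genes, though not all, were brightest on that same array. S100a8, a calcium-binding protein abundant in neutrophils, read 406, 581 and 616 in knockout, against 206, 320 and 1252 in heterozygous thyroid, and its partner S100a9 read 698, 960 and 762 against 432, 694 and 1222. Ngp, a neutrophil granule protein singled out after its values were seen, read 17.9, 88.3 and 23.1 against 3.40, 61.6 and 180 in the same order. Lcn2, made by neutrophils and by glands, was brightest on knockout 6 instead, at 66.7, 84.7 and 148 in knockout and 37.2, 75.3 and 96.0 in heterozygous thyroid. The myeloperoxidase gene Mpo was brightest on knockout 2, at 118, 76.2 and 11.7 in knockout and 9.50, 73.8 and 70.6 in heterozygous thyroid. Of the 5 tested neutrophil genes, Ltf itself included, 3 were highest on heterozygous 5 and 4 were lowest on heterozygous 1. The 3 were Ltf, S100a8 and S100a9. The summed signal of 12 neutrophil genes, again with Ltf, was between 1448 and 1956 in knockout and between 781 and 3185 in heterozygous thyroid. The part of neutrophils in the Ltf values was not tested.

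The salivary gland markers other than Mucl1 were mostly under background. Of 18 measured, 11 were under background on all 6 arrays, among them Bpifa2, Smgc, Dcpp1, Pip, Car6, Cst10, Lpo, Smr2 and Smr3a, which encode secreted products of salivary or lacrimal gland cells. The 4 tested genes, 3 higher and 1 lower with a median log2 difference of 0.14, are also made outside salivary glands. They were the amylase gene Amy1 (1357 ± 383 in knockout and 1215 ± 446 in heterozygous thyroid), the secretory cell regulator Bhlha15 (600 ± 59.1 and 567 ± 107), the kallikrein Klk1 (197 ± 89.7 and 289 ± 84.4) and Egf (169 ± 43.5 and 145 ± 24.6). The groups overlapped for each of the 4. Klk1 has close relatives in the kallikrein family, so its probe set may read more than 1 gene.

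Among other mucins, only Emcn and Muc15 were bright enough to be tested, and both had overlapping groups. Emcn, an endothelial sialomucin, averaged 1791 ± 581 in knockout and 1765 ± 193 in heterozygous thyroid. Muc15, a membrane mucin, read 1294, 609 and 0.86 on knockouts 2, 4 and 6, against 13.7, 1058 and 738 on heterozygous 1, 3 and 5. It was under background on knockout 6 and heterozygous 1 alone, the arrays on which Pth was lowest. The neuroendocrine and parathyroid granule protein Chga was lowest on the same arrays, at 6348, 5631 and 544 in knockout and 718, 5773 and 6062 in heterozygous thyroid. Casr, also on the parathyroid list, was lowest there too, at 403, 154 and 73.3 against 107, 237 and 234. Chgb of that list went another way and was brightest on heterozygous 1. It read 1382, 755 and 519 in knockout, against 1859, 1096 and 886 in heterozygous thyroid. Whether parathyroid tissue carried the Muc15 signal was not tested. The gel-forming Muc5b read 10.9, 40.7 and 27.9 in knockout, against 28.6, 85.8 and 63.3 in heterozygous thyroid. Muc20, singled out after its values were seen, was too dim to be tested. It read 20.6, 20.4 and 24.7 in knockout, against 16.0, 8.60 and 5.76 in heterozygous thyroid, by the brighter of its 2 probe sets. These groups did not overlap, but only knockout 6 was above background.

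**Figure D4:**
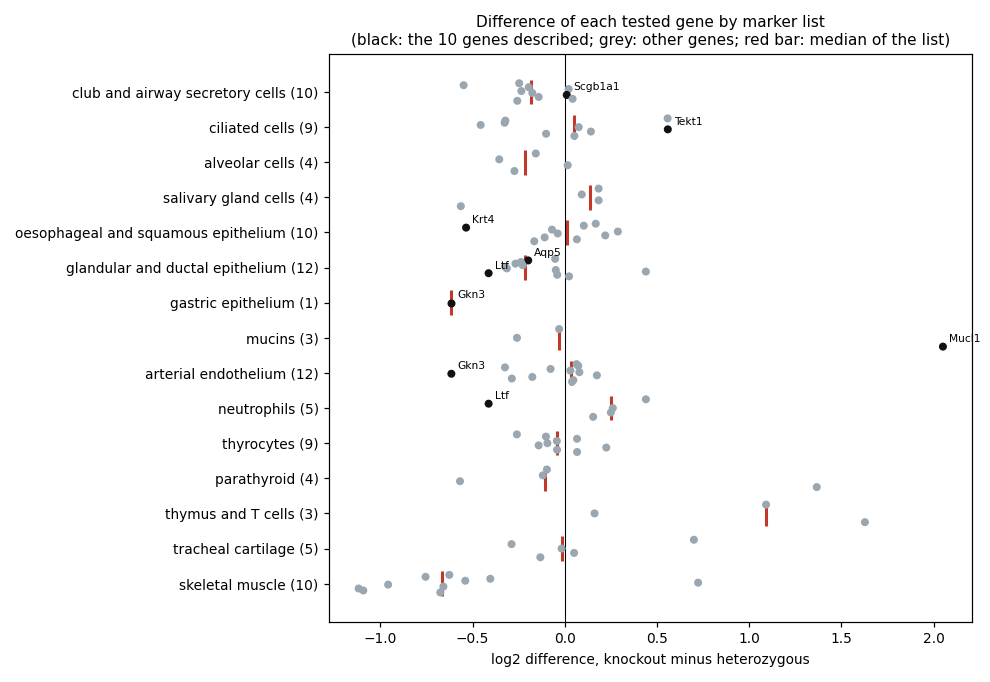
Log2 difference, knockout minus heterozygous, of every tested gene of 15 marker lists, with the number tested in brackets. Black points are genes among the 10 described, grey points are other genes, and red bars are list medians. Mucl1 lies at 2.05, while the other tested genes of the airway, ciliated, salivary, squamous and glandular lists lie between -0.56 and 0.56.

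Across the 15 lists, 98 genes were tested, of which 91 were not among the 10 described. Of these 91, the knockout arrays lay wholly above the heterozygous ones for 2 genes and wholly below for 0, beside 1.64% and 2.04% of all probe sets tested. The 2 were Krt10 and Ly6d. The summed signal of a list overlapped between the genotypes for 14 of the 15 lists, and the list that did not overlap was the gastric one, through Gkn3. Skeletal muscle genes had a median log2 difference of -0.67, with a summed signal between 6749 and 38669 in knockout and between 20952 and 37902 in heterozygous thyroid. That median rested on knockout 6, where 8 of the 10 genes were lowest. It was -0.01 without knockout 6 and -1.13 without knockout 2. Tracheal cartilage, a tissue next to the airway lining, had a median of -0.02 and a summed signal between 1841 and 2196 in knockout and between 1630 and 2634 in heterozygous thyroid.

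The likeness of each probe set to Mucl1 was measured as the root mean square difference between log2 profiles over the 6 arrays, each centred on its own mean. A profile with no change at all would lie at 1.07, and 37.2% of the 27021 other tested probe sets were closer to Mucl1 than that. Mucl1 was chosen for its step between the genotypes, which makes up most of its profile. Likeness to it therefore mostly reads whether a gene was higher in knockout. Tekt1 was the only tested gene of the other 9 that was closer than a flat profile, at 0.80, the 31st closest. Its place depended on single arrays. It was the 263rd without heterozygous 1, the 176th without knockout 6, the 113th without heterozygous 5 and the 106th without knockout 2. Among the knockouts Mucl1 was brightest on knockout 2 and dimmest on knockout 6, while Tekt1 was brightest on knockout 6. Among the heterozygotes both were dimmest on heterozygous 1 and brightest on heterozygous 3. Scgb1a1 lay at 1.17, Aqp5 at 1.17, Krt4 at 1.35, the Gkn3 probe sets at 1.36 and 1.40, and Ltf at 1.46. Between 83.8% and 99.3% of the probe sets were closer to Mucl1 than these.

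The 8 named genes closest to Mucl1 were Tac1, Tbca, Alas2, Pttg1, Pard6g, Apol11b, Ttll10 and Mier2, at distances between 0.64 and 0.74, and 0 of the 8 stood on any of the marker lists. Tac1, the precursor of substance P, read 101, 88.0 and 82.9 in knockout, against 17.1, 29.3 and 79.6 in heterozygous thyroid. Its log2 difference was 1.01 by this probe set and 0.12 by its other one. Alas2, the heme synthesis enzyme of red cell precursors, read 281, 482 and 312 against 118, 167 and 310 in the same order. Tbca, a tubulin folding factor, read 87.4, 69.6 and 113 against 30.9, 30.1 and 48.9 by the probe set closest to Mucl1, while its other 3 probe sets gave log2 differences between -0.03 and -0.01. Other probe sets of Pttg1, Pard6g, Ttll10 and Mier2 gave log2 differences between -0.45 and 0.21, while that of Apol11b gave 1.16. The groups did not overlap for 5 of the 8 by the probe sets closest to Mucl1. With 6 arrays and 27021 probe sets to choose from, some close profiles are found for any gene, and these 8 are given as a description.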

How the data were processed

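The authors deposited linear intensities for each probe set of 6 arrays, made with GCOS, the array maker's software, per the submitters' processing notes. Per the labels' protocols, RNA of dissected thyroid was extracted with a Qiagen kit, amplified and labelled by NuGEN's Ovation method and hybridised to Affymetrix mouse arrays. Software settings and detection calls were not used here. The mean of each array, trimmed by 2% at each end, was 500.002, so the arrays had been scaled alike, and that scaling was kept. The number of arrays limits the precision.

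The platform annotation gave 34958 of 45101 probe sets a single symbol, 932 more than 1 and 9211 none, and RefSeq (GRCm38.p6) altered 0 of the single symbols. After leaving out 64 control probe sets, log2(signal + 16.7), with the 25th percentile of all values as pseudocount, was fitted with limma 3.58.1 in R 4.3.3 (lmFit, eBayes with trend). A filter on the mean of the log2 values, set at their 40th percentile, left 27022 probe sets for testing, with Benjamini-Hochberg adjustment over all of them. The fit was tested on simulated data. A gene of a list was read by its tested probe set of highest mean.

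The 10 genes and 15 marker lists were chosen with earlier results of these data known. Beside the 10 genes, the rule for naming took the 3 brightest genes of a list, the 2 of largest difference and the 8 genes most like Mucl1. Other genes were named to describe what a list held or were said to be singled out.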

Additional observations from a re-analysis of the deposited data

How the results depend on the processing

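No paired analysis was made, because the labels and design text name no pairs and no batches. Sample numbers alternate between the genotypes. Whether samples of neighbouring numbers were handled together is not stated and was not tested. In place of the deposited scaling, quantile or cyclic loess normalization was tried. The pseudocount was multiplied by 0.25 or by 4, the filter was dropped or set to the 60th percentile, eBayes was run robustly or with no trend, and each array was left out in turn. Under each of them limma called 0 probe sets across the array and 0 of the genes other than Mucl1 and Gkn3. The log2 difference of Mucl1 was 2.52 with the smaller and 1.25 with the larger pseudocount, and 1.78 to 2.24 with an array left out. Its sign could not turn there, since its groups do not overlap. With the stricter filter Mucl1, Gkn3, Krt4 and Ltf were no longer tested. The log2 difference of Scgb1a1, 0.01, fell below 0 without knockout 2 (-0.14), knockout 6 (-0.20), heterozygous 1 (-0.14) or heterozygous 3 (-0.20), and ranged from -0.20 to 0.38 over all arrays left out. The cause was not tested. Krt4, Aqp5 and Ltf stayed lower in knockout in the settings that gave a value, which for Ltf also leaves out that without heterozygous 5. The groups of Tekt1 and Gkn3 do not overlap, which fixes their direction when an array is left out. List medians near 0 took either sign with an array left out, from -0.24 to 0.08 for airway secretory, -0.04 to 0.16 for ciliated, -0.11 to 0.06 for squamous, -0.07 to 0.07 for arterial and -0.27 to 0.60 for neutrophil genes. The likeness ranks of Tekt1 under other settings were added after seeing the data, and were 51 and 21 with the smaller and the larger pseudocount. The single Mucl1 probe set, its dim heterozygous readings and 3 arrays a group limit what these values can show.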
